A study of Mus musculus with 12 samples.

Results

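Expression of the VEGF receptors, their co-receptors and ligands, and a pair of endothelial adhesion genes was examined in mouse spermatogonia. The 10 genes were chosen by symbol from the 21859 genes of the deposited table: *Kdr*, *Flt1* and *Flt4* (receptors), *Nrp1* and *Nrp2* (co-receptors), *Vegfa*, *Vegfb* and *Vegfc* (ligands), and *Pecam1* and *Cdh5* (endothelial adhesion). RNA was measured by Smart-seq2, a full-length cDNA method with PCR amplification and without molecular identifiers, in 5 control and 7 cryptorchid libraries of GFRa1+/KIT- cells, a fraction that holds undifferentiated spermatogonia. The mice were 8 to 10 weeks old and carried GFRa1-EGFP, which reports the GDNF receptor gene *Gfra1*, and KIT is a surface marker of differentiating spermatogonia. Cryptorchid testes were left testes moved by surgery and taken at day 10, and the untouched right testes were the control. GEO's genotype field gives WT for the control and Cryptorchid for the operated group. Testes were digested for 9 min at 32°C in the control and at 37°C in the cryptorchid group, so the effects of surgery and digestion temperature cannot be told apart. It is not stated which libraries come from the same mouse, and *P*-values measure the spread between these libraries, each made from RNA of about 200 cells out of about 1000 sorted cells.

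VEGF ligands are secreted dimers that bind receptor tyrosine kinases. VEGFR2, encoded by *Kdr*, carries most of the signal of VEGFA for growth and movement of endothelial cells, VEGFR1 (*Flt1*) binds VEGFA more tightly but signals weakly and can act as a decoy, and VEGFR3 (*Flt4*) is the receptor of VEGFC and VEGFD in lymphatic vessels. Neuropilins bind both VEGFs and semaphorins. PECAM1 and VE-cadherin, the product of *Cdh5*, hold endothelial cells together at their junctions, and *Pecam1* is also expressed in some leukocytes, platelets and germline cells. The question was how each of these genes differed between control and cryptorchid libraries, and whether *Kdr* moved together with genes of endothelial identity.

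The RefSeq promoter table (GRCm38.p6) held 8 of the 10 genes, all but *Pecam1* and *Cdh5*. The 250 bases before the start of *Kdr* and *Flt1* are shown because the RNA of these sister receptors, both on the minus strand of chromosome 5, behaved differently. Capitals mark HIF cores (ACGTG or GCGTG on either strand, the core letters bound by hypoxia-inducible factors). They also mark ETS cores, here only the form CCGGAA on either strand, which is not the only form bound by ETS factors. In these windows no HIF core overlapped an ETS core.
Kdr, chr5:75978456-75978705, minus strand: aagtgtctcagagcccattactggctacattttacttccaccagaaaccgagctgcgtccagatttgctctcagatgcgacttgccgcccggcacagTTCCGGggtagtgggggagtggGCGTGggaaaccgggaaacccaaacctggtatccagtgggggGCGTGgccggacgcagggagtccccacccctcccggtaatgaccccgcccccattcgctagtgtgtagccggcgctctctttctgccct
Flt1, chr5:147726012-147726261, minus strand: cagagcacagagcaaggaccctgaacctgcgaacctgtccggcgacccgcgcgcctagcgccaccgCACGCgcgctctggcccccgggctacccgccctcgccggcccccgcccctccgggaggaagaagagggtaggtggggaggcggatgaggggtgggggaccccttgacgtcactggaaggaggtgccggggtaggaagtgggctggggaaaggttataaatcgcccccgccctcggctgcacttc
The *Kdr* window held 2 HIF cores, which begin 131 and 89 bases before the start, and 1 ETS core, which begins 153 bases before it. The *Flt1* window held 1 HIF core, which begins 184 bases before the start, and 0 ETS cores of the form CCGGAA. The shorter letters GGAA occur in both windows and were not marked, so the *Flt1* window is not shown to lack ETS sites. Over all 32851 promoters of this length in the table, 38.6% held a HIF core and 12% an ETS core, so these letters are common. The windows held 16 CpG in *Kdr* and 23 in *Flt1*, against a median of 6. These matches describe letters and are not evidence of binding. Any relation of these letters to the RNA of *Kdr* and *Flt1* was not tested.

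Control libraries held 4511730 to 24345368 reads on genes (median 7603202) and cryptorchid libraries 3306771 to 20027902 (median 4611830). Values are on the log2 RPM scale, reads scaled to the library total, and reads were recovered from the steps between low values. Read numbers give counting error only. Replicates 1 to 3 of each group (batch 1) and replicates 4 and above (batch 2) formed a pair of technical sets in the values themselves, as reads on genes were 74.5% to 94.0% of the RPM total in batch 1 and 94.8% to 99.9% of it in batch 2. Batch 2 holds 2 control and 4 cryptorchid libraries. In the sorted cells, the control mean of *Gfra1* was 7.88 ± 0.884 log2 RPM (SD, n=5), and the cryptorchid mean was 8.40 ± 0.704 (SD, n=7). Of the 10 genes on a list for undifferentiated spermatogonia, 0 passed the thresholds for a difference given below, against 5.92% of all genes tested. At that share a count of 0 does not show that the groups held the same cells. *Nanos3* of this list fell just short of 2-fold, at -0.97 (unadjusted *P*=0.0349 in limma). *Kit* RNA, at 4.49 ± 0.627 (SD, n=5) and 4.94 ± 0.567 (SD, n=7), was present although KIT was absent from the sorted surface. RNA of haploid spermatids was present too, and its 5 genes summed to 466.3 to 2510 RPM in control and 11.6 to 1649 RPM in cryptorchid libraries. A group difference may therefore hold different cells, and in bulk RNA fewer cells of a type and less RNA per cell cannot be told apart.

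All 10 genes passed the filter on low values (log2 of the mean RPM above -1), as did 16932 genes in all. A gene was called where limma gave a difference of at least 2-fold with a two-sided unadjusted *P*-value under 0.05. The *P*-value alone was under 0.05 for 9.48% of all genes tested. Over all genes tested 5.92% were called, with 3.56% higher and 2.36% lower in cryptorchid, and 0.0118% (2 genes) had an adjusted *P*-value under 0.05. *Kdr* and *Vegfb* are in a list of genes that the study chose on lost H3K27me3 peaks in ChIP-seq and on higher RNA in these same libraries. They are therefore described here without a test. Of the other 8 genes, 1 was called (*Cdh5*, higher) and 0 had an adjusted *P*-value under 0.05 (limma, 0.359 to 0.937 over all genes tested). The mean of each of the 10 genes was higher in cryptorchid, with a median log2 difference of 0.70, against 56.7% of all genes and a median of 0.10 over all genes tested. As some genes were picked for a higher mean, this count is not evidence of a direction of the group. The plot of log2 RPM by library shows how much single libraries weigh in most of these genes.

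**Figure D1:**
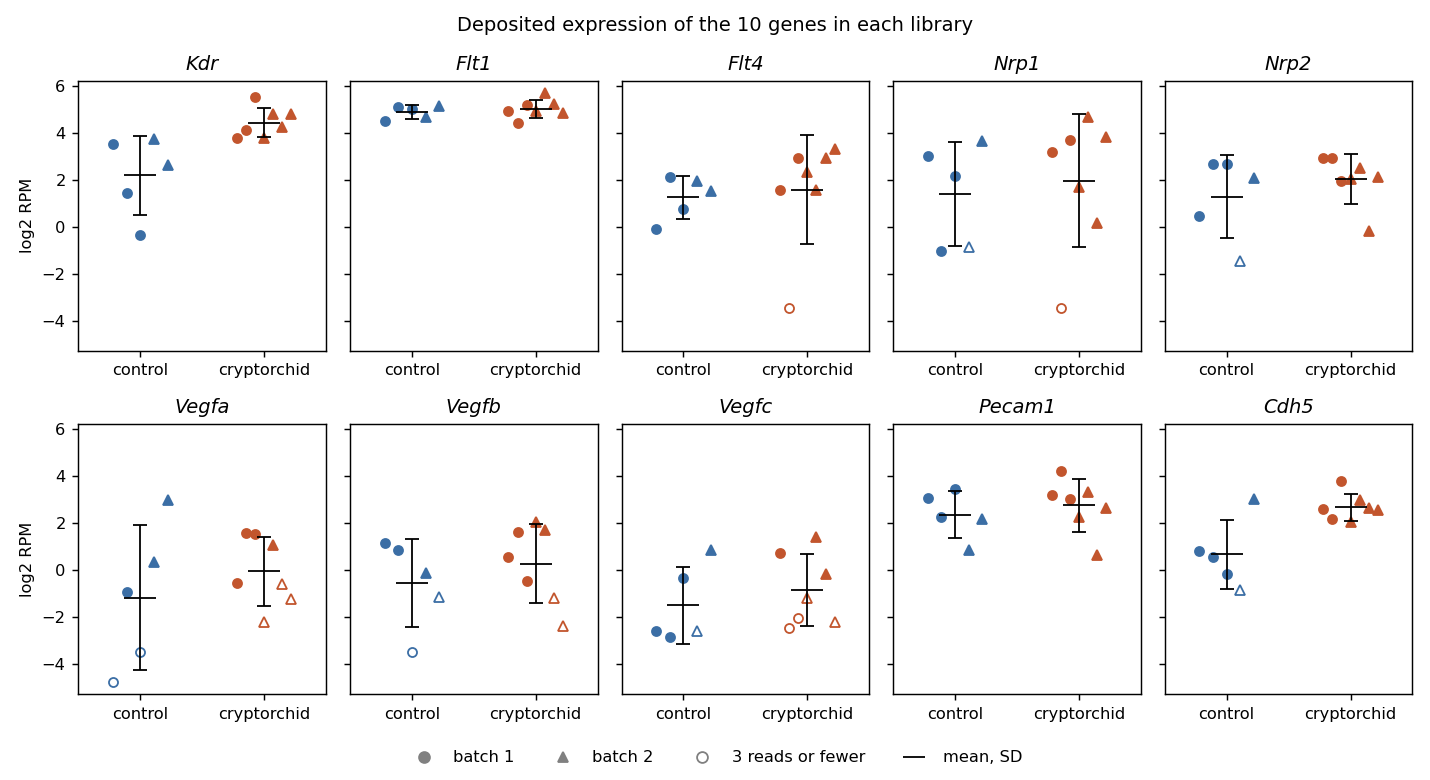
Deposited log2 RPM (vertical axis) of the 10 genes in each of the 5 control (blue) and 7 cryptorchid (orange) libraries, in order of replicate number, with circles for batch 1, triangles for batch 2, open symbols for 3 reads or fewer, and bars for the mean and SD. *Flt1* stays between 4.43 and 5.67 in all libraries, *Kdr* is the gene whose groups do not overlap, and the 3 ligands lie near the limit of detection.

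*Kdr* (chromosome 5 of GRCm38, 75932827 to 75978458) was higher in cryptorchid than in control spermatogonia by 4.71-fold on the log2 RPM scale. In control replicates 1 to 5 it had 3.50, 1.44, -0.35, 3.73 and 2.63 log2 RPM. In cryptorchid replicates 1 to 7 it had 3.75, 4.12, 5.50, 3.79, 4.78, 4.24 and 4.80. All 7 cryptorchid values lay above all 5 control values, which held for 0.555% of all genes tested in this direction. The margin was narrow, with 3.75 in the lowest cryptorchid and 3.73 in the highest control library. Control libraries were spread much more widely than cryptorchid ones, at 2.19 ± 1.68 (SD, n=5) against 4.43 ± 0.634 (SD, n=7). The log2 difference was 2.24 (standard error 0.617), or 2.93 within batch 1 and 1.22 within batch 2. Control replicate 3, with 8 reads of *Kdr*, set part of this, and without it the difference was 1.60. The other control libraries had 28 to 275 reads and the cryptorchid libraries 64 to 381.

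*Flt1* (chromosome 5, 147561604 to 147726011) had no such difference between the groups and varied less between libraries than *Kdr* did. Control replicates 1 to 5 had 4.47, 5.08, 5.01, 4.67 and 5.11 log2 RPM. Cryptorchid libraries ran from 4.43 to 5.67 with a median of 4.93, so the groups overlapped, with 3 cryptorchid libraries above the highest control. The means were 4.87 ± 0.283 (SD, n=5) and 5.02 ± 0.385 (SD, n=7), a log2 difference of 0.15 (standard error 0.282, unadjusted *P*=0.607, adjusted 0.90 in limma). Batch 1 gave -0.013 and batch 2 gave 0.26. In control replicate 3 *Flt1* had 330 reads where *Kdr* had 8.

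Set on a scale of length (mean log2 RPM per kb of exon), *Flt1* was the highest of the 10 genes in both groups. In control it had 1.11, well above *Kdr* at -0.99, with *Pecam1* at -0.29 between them. The gap from *Flt1* to *Pecam1* (1.40) was larger than the SD of either gene, whereas no other neighbours in the control order were apart by more than their spread. In cryptorchid libraries *Kdr*, at 1.25, stood next to *Flt1*, at 1.26, and their gap was within the spread. *Cdh5* followed at 0.60, and the gap of 0.65 from *Kdr* to *Cdh5* just exceeded the larger SD of 0.634. *Vegfc* and *Vegfa* had the lowest means on this log2 scale in both groups, by gaps within the spread and with 2 control libraries of *Vegfa* at 0 reads.

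*Flt4* (chromosome 11, 49609263 to 49652739) ran from -0.08 to 2.11 log2 RPM in control and from -3.48 to 3.30 in cryptorchid libraries. Cryptorchid replicate 2 had 1 read, whereas the other 6 lay between 1.54 and 3.30. The log2 difference was 0.33 (standard error 0.990, unadjusted *P*=0.741 in limma), with -0.60 in batch 1 and 0.79 in batch 2. Without cryptorchid replicate 2 it was 1.17 (unadjusted *P*=0.0781).

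The co-receptors varied widely between libraries. *Nrp1* (chromosome 8, 128358604 to 128503363) had 3.01, -1.04, 2.14, -0.87 and 3.66 log2 RPM in control replicates 1 to 5. In cryptorchid libraries it ran from -3.48 to 4.65 with a median of 3.17. Each group thus held libraries with many and with few reads, from 3 to 196 in control and from 1 to 200 in cryptorchid. The log2 difference was 0.57 (standard error 1.25, unadjusted *P*=0.652 in limma), and it was -0.031 without control replicate 2 and 1.48 without cryptorchid replicate 2. *Nrp2* (chromosome 1, 62703285 to 62818695), which mainly serves VEGFC and class 3 semaphorins, had -1.46 to 2.67 log2 RPM in control and -0.19 to 2.91 in cryptorchid libraries. Its log2 difference was 0.75 (standard error 0.796, unadjusted *P*=0.360 in limma).

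The ligands were covered by few reads. *Vegfa* (chromosome 17, 46016993 to 46032369) had 0, 15, 0, 7 and 35 reads in control replicates 1 to 5 and 1 to 33 reads in cryptorchid libraries. Its log2 difference was 1.11 (standard error 1.20, unadjusted *P*=0.367 in limma), but the direction was opposite between the batches, with 3.90 in batch 1 and -2.40 in batch 2. Mean RPM pointed the other way from the log2 means, at 1.93 in control and 1.41 in cryptorchid, with 7.75 RPM in control replicate 5. No direction is read for *Vegfa*. *Vegfb* (chromosome 19, 6982473 to 6987651), not tested here, was covered by 0 to 54 control and 0 to 34 cryptorchid reads per library and a log2 difference of 0.83. *Vegfc* (chromosome 8, 54077606 to 54187096) had 0 to 8 and 1 to 37 reads and a log2 difference of 0.65 (unadjusted *P*=0.519 in limma).
Log2 differences of such genes carry a part from depth. A gene without reads is deposited at the value of 0.9 reads, which is higher in a shallower library, and the 1383 genes without a read in any library all had a log2 difference of 0.71. With 1 common floor for all libraries (-1.92 log2 RPM, the highest of the values for genes without reads), which takes this part away, the differences of *Vegfa*, *Vegfb* and *Vegfc* were 0.27, 0.58 and 0.34.

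The endothelial adhesion genes differed from each other. *Cdh5* (chromosome 8, 104101625 to 104144511) was higher in cryptorchid libraries, at 2.67 ± 0.574 log2 RPM (SD, n=7) against 0.66 ± 1.46 (SD, n=5) in control. Control replicates 1 to 5 had 0.82, 0.55, -0.18, -0.87 and 3.0 log2 RPM. Cryptorchid replicates 1 to 7 had 2.59, 2.16, 3.76, 2.04, 2.98, 2.62 and 2.53. The groups overlapped through control replicate 5, which lay above 6 of the 7 cryptorchid libraries, and the other 4 control libraries lay below each of the 7. The log2 difference was 2.01 (standard error 0.673, 4.02-fold, unadjusted *P*=0.00807, adjusted 0.359 in limma). Batch 1 gave 2.44 and batch 2 gave 1.48, and in batch 2 alone *Cdh5* was not called (unadjusted *P*=0.191). With each library left out in turn it ran from 1.62 to 2.59, with unadjusted *P*-values from 0.000900 to 0.0293. Its reads numbered 3 to 43 per control library and 19 to 134 per cryptorchid library.
*Pecam1* (chromosome 11, 106654217 to 106750628) had 3.05, 2.26, 3.42, 0.86 and 2.15 log2 RPM in control replicates 1 to 5 and 0.62 to 4.19 in cryptorchid libraries, with a median of 3.0. The groups overlapped widely. Its log2 difference was 0.39 (standard error 0.635, unadjusted *P*=0.545 in limma), with 0.54 in batch 1 and 0.70 in batch 2. The plot of differences within batches shows a higher cryptorchid mean in both batches for *Kdr*, *Nrp2*, *Vegfb*, *Vegfc*, *Pecam1* and *Cdh5*. The share of all genes with this pattern was not computed. Depth alone can give it, as *Ccl21a*, with 0 reads in every library, had 0.59 in batch 1 and 0.22 in batch 2. *Vegfc*, at 0.66 and 0.34, was little above this.

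**Figure D2:**
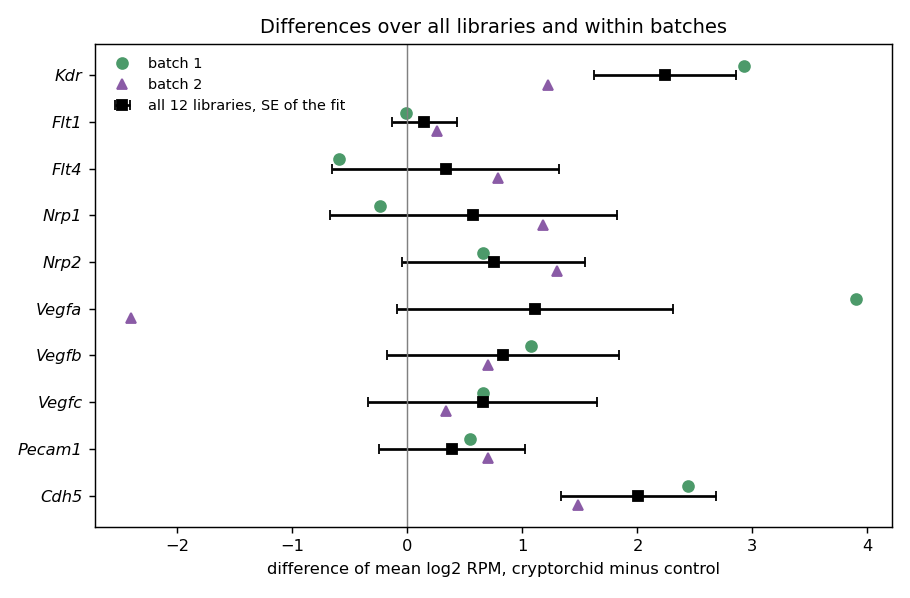
Difference of mean log2 RPM, cryptorchid minus control (horizontal axis), for each gene over all 12 libraries (black squares, bars are the standard error of the fit), within batch 1 (green circles) and within batch 2 (purple triangles). *Kdr* and *Cdh5* lie furthest to the right over all libraries, at 2.24 and 2.01, and *Vegfa* takes opposite sides in the batches, at 3.90 and -2.40.

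To see whether other endothelial genes behaved like *Kdr* and *Cdh5*, a list of 16 blood endothelial genes that holds none of the 10 was read from the same fit, and 14 of them passed the filter. Of these 14 genes, 3 were called higher (*Tie1*, *Vwf* and *Robo4*) and 0 lower, against 3.56% and 2.36% of all genes tested. The highest control values of *Tie1* and *Robo4*, -2.17 and -2.33 log2 RPM, lay below the filter of -1. These 2 genes passed it only through cryptorchid libraries, which favours a higher call, so the count of 3 is not read against these shares. The mean was higher for 9 genes and lower for 5, and the median log2 difference was 0.11, close to the 0.10 of all genes tested. *Vwf*, the gene of von Willebrand factor, rose by 1.80 on the log2 scale (standard error 0.739, unadjusted *P*=0.0254, adjusted 0.456 in limma), and was covered by 4 to 154 control and 18 to 298 cryptorchid reads per library. *Tie1*, an angiopoietin co-receptor, had at most 1 read in each control library and 0 to 27 reads in cryptorchid libraries, and *Robo4*, a guidance receptor of vessels, had 0 to 4 and 0 to 61 reads. Their log2 differences of 2.86 and 2.58 rest on values given to few or no reads. With the common floor they were 1.37 and 1.79, and *Tie1* was no longer called (unadjusted *P*=0.0538 in limma).
Other defining genes of endothelial cells were not called. *Tek*, the angiopoietin receptor, had a log2 difference of 0.05 and *Eng*, a TGF-beta co-receptor, 0.17, whereas *Plvap* and *Cd34* had -0.66 and -1.11. *Cldn5*, *Tal1* and *Emcn* had higher means, by 1.02, 0.81 and 0.50, or 0.86, 0.45 and 0.23 with the common floor. *Sox18*, *Egfl7* and *Ecscr* had lower means, at -0.69, -0.25 and -0.11. *Erg*, an ETS factor, was far above the rest with 421 to 3326 reads and differed by 0.0040. Summed over the list without *Erg*, the level was 28.8 to 63.1 RPM in control (median 55.2) and 34.7 to 77.4 RPM in cryptorchid libraries (median 47.3). Each library held reads of 9 to 15 of the 16 genes. The part of endothelial RNA in the difference of *Kdr* was not tested.

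**Figure D3:**
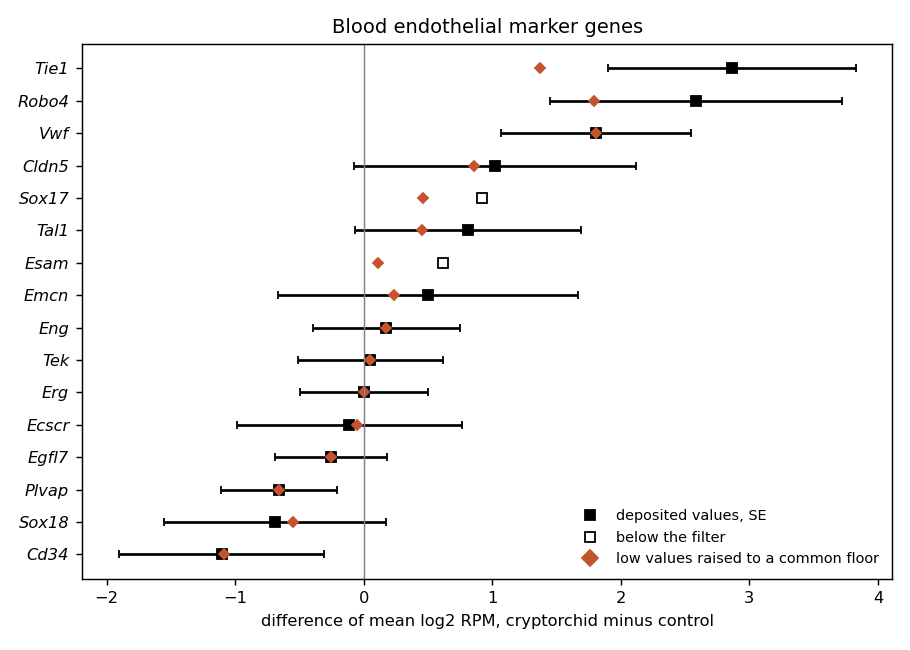
Difference of mean log2 RPM, cryptorchid minus control (horizontal axis), for the 16 blood endothelial genes, with black squares for the deposited values (bars are the standard error of the fit), open squares for the 2 genes below the filter, and orange diamonds for the difference after low values were raised to the common floor of -1.92 log2 RPM. The genes spread to both sides of 0, from -1.11 for *Cd34* to 2.86 for *Tie1*, and *Tie1* moves to 1.37 with the common floor.

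The libraries themselves were then compared for *Kdr* and endothelial identity. The mean log2 RPM of the 14 genes (endothelial score) was 0.77 ± 0.425 over control (SD, n=5) and 1.27 ± 0.524 over cryptorchid libraries (SD, n=7). Some of its genes lacked reads in several libraries (*Emcn* and *Cldn5* in 7 of 12), so the score too carries a part from depth. Among cryptorchid libraries, replicate 1 had the highest score, 1.88, and the lowest *Kdr*, 3.75. Replicate 3 had the lowest score, 0.65, and the highest *Kdr*, 5.50. Over the 7 cryptorchid libraries Pearson's r between the score and *Kdr* was -0.55 (exact two-sided permutation test, *P*=0.177, adjusted over 10 relations 0.586), and Spearman's rho was -0.75 (exact permutation *P*=0.0663, adjusted 0.440). Without replicates 3 and 1, the libraries farthest from the median score, r was -0.03. The 5 libraries left cover a narrower range of the score, which by itself can weaken r. No relation between the score and *Kdr* was thus established, and the sign depends on how the score is made. With the log2 of the summed RPM, which follows *Erg*, r was 0.77 (exact permutation *P*=0.0470), and without *Erg* the same sum gave -0.61, a setting chosen after the data were seen. The mean score with the common floor, also chosen after the data were seen, gave r of -0.51 (exact permutation *P*=0.223).
Of the other 9 genes, *Cdh5* had the highest Pearson's r with *Kdr* among the cryptorchid libraries, 0.85 (exact permutation *P*=0.0141, adjusted over 10 relations 0.141) and rho of 0.61 (exact permutation *P*=0.167, adjusted 0.533). By Spearman's rho *Flt4* ranked above it, at 0.71 (exact permutation *P*=0.0881, adjusted 0.440), although its r was 0.33. Cryptorchid replicate 3 had the highest value of both *Kdr* and *Cdh5*. Without replicates 3 and 4, the libraries farthest from the median of *Cdh5*, r between *Kdr* and *Cdh5* was 0.46. This leaves 5 libraries over a narrower range, which by itself can weaken r, so it does not settle what the relation rests on. Over all 12 libraries, deviations from the group means gave r of 0.25 for these 2 genes, and deviations from the means of group and batch gave 0.16. Among control libraries, replicates 1 to 3 had the same order in *Kdr* (3.50, 1.44 and -0.35) and *Cdh5* (0.82, 0.55 and -0.18). Replicate 4 had the highest *Kdr* (3.73) with the lowest *Cdh5* (-0.87, 3 reads). Replicate 5 had the highest *Cdh5* (3.0) with a *Kdr* of 2.63. With *Pecam1*, r was 0.10 (exact permutation *P*=0.837, adjusted over 10 relations 0.854) and rho was -0.07 (exact permutation *P*=0.906, adjusted 0.906). For the 7 remaining genes r ran from -0.43 (*Vegfb*) to 0.53 (*Vegfa*), and the adjusted *P*-values of the exact permutation test were at or above 0.586. Over the 5 control libraries no relation was computed, as they are too few.

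**Figure D4:**
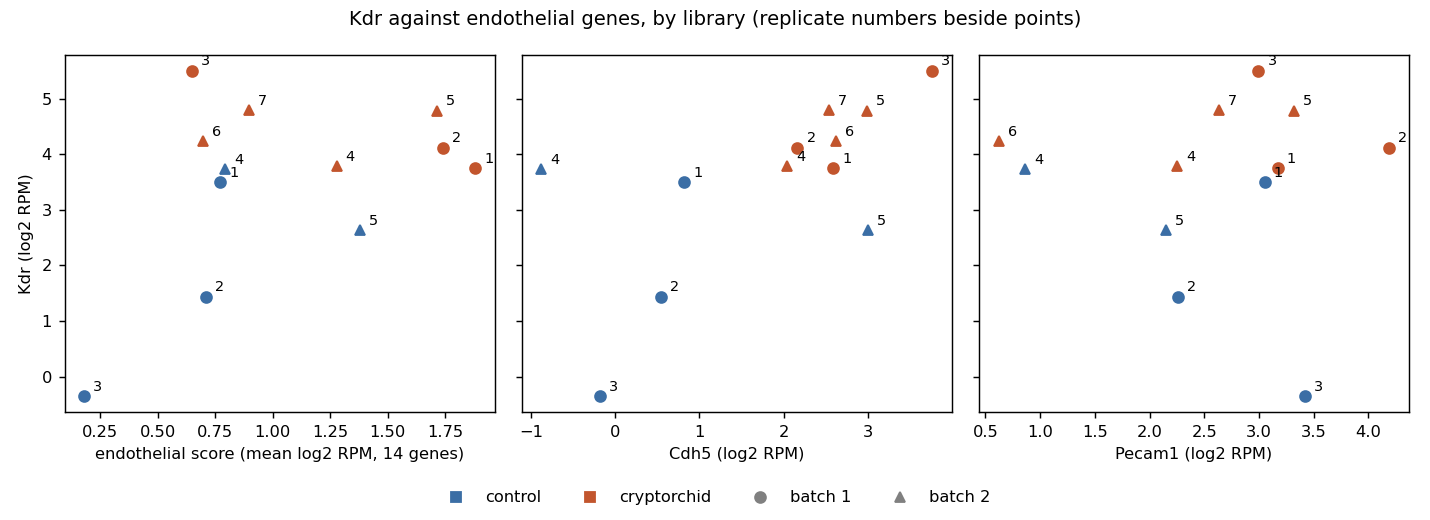
*Kdr* in log2 RPM (vertical axis) against the endothelial score, *Cdh5* and *Pecam1* (horizontal axes, log2 RPM), one point per library with its replicate number, blue for control and orange for cryptorchid, circles for batch 1 and triangles for batch 2. Cryptorchid replicate 3 has the highest *Kdr* (5.50) and *Cdh5* (3.76) but the lowest score of its group (0.65), and control replicate 3, with the lowest *Kdr*, has the highest *Pecam1* of the control (3.42).

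As a description, the genes whose pattern was most like that of *Kdr* over all 12 libraries were *Htr6*, *Apeh*, *Nlrc5*, *Sh3tc2* and *Slc36a2*, with r from 0.88 to 0.89. These points share the group difference, the batches and the depth of each library. *Htr6* encodes a serotonin receptor, *Apeh* an acylpeptide hydrolase, *Nlrc5* a regulator of MHC class I genes, and *Slc36a2* an amino acid transporter. Within the 7 cryptorchid libraries their r with *Kdr* ran from 0.05 to 0.65. *Cdh5* stood at place 403 of this order over the 12 libraries (r of 0.64) and *Pecam1* at place 12091 (r of -0.06).

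The rest of the pathway was read from a list of 36 genes, all of which passed the filter. Of these, 1 was called higher, 0 were called lower, and 0 had an adjusted *P*-value under 0.05 in limma. Over all genes tested 3.56% were called higher and 2.36% lower, so 1 of 36 is no more than this background. The mean was higher for 24 genes and lower for 12, with a median log2 difference of 0.18, against 56.7% of genes higher and a median of 0.10 over all genes tested. *Prkcb* and *Sema3c* were also chosen by the study in part on higher RNA in these libraries, so the list is not independent in its direction. The gene called was *Ptprb*, which encodes VE-PTP, a phosphatase that acts on VE-cadherin, TIE2 and VEGFR2 in endothelial cells. The control mean of *Ptprb* was 2.46 ± 0.676 log2 RPM (SD, n=5) and the cryptorchid mean 3.67 ± 0.682 (SD, n=7), a log2 difference of 1.21 (standard error 0.477, unadjusted *P*=0.0209, adjusted 0.432 in limma), with 1.41 in batch 1 and 0.96 in batch 2. The remaining ligands were not called. *Pgf*, a ligand of VEGFR1, had a log2 difference of -0.33 (unadjusted *P*=0.784 in limma) and *Vegfd* one of 1.16 (unadjusted *P*=0.335 in limma), with standard errors of 1.20 and 1.17.

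Hypoxia-inducible factors drive *Vegfa* and *Flt1* in many tissues, and 14 genes of the HIF pathway were read in the same way. Of the 12 that passed the filter, 0 were called higher and 2 lower, against 3.56% and 2.36% of all genes tested, and the median log2 difference was -0.0067, against 0.10. *Slc2a1*, the glucose transporter GLUT1, fell by 1.45 on the log2 scale (standard error 0.513, unadjusted *P*=0.0114, adjusted 0.380 in limma). *Ndrg1*, a stress response gene, fell by 1.28 (standard error 0.326, unadjusted *P*=0.000996, adjusted 0.215 in limma). Both had lower means in both batches.

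Markers of other cells were counted in the same fit, in which 3.56% of all genes tested were called higher and 2.36% lower. Of the 6 macrophage genes 5 passed the filter and 1 was called higher, *Mrc1*, by 2.02, and the summed level of the list was 4.51 to 23.8 RPM in control and 10.5 to 40.0 RPM in cryptorchid libraries. Of the 6 pericyte and peritubular genes 1 was called higher, *Des*, by 2.55, or 1.32 and no longer called with the common floor (unadjusted *P*=0.0538 in limma). *Des* also passed the filter only through cryptorchid libraries, as its highest control value was -1.17 log2 RPM. That list summed to 7.96 to 34.8 RPM in control (median 25.3) and 17.7 to 50.9 RPM in cryptorchid libraries (median 23.3). None of the lymphatic endothelial, Leydig and Sertoli genes was called (0 of 3, 3 and 6 that passed the filter), and the lymphatic marker *Ccl21a* had 0 reads in every library. Of 3 differentiation genes, *Stra8* was called higher by 1.09 and *Dnmt3b* called lower at -1.20. Of 5 spermatid genes, 2 were called lower, *Prm1* at -2.40 and *Prm2* at -3.73. The part of these cells in the differences of *Kdr* and *Cdh5* was not tested.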

How the data were processed

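GFRa1+/KIT- spermatogonia were sorted from control and cryptorchid testes, and 5 and 7 Smart-seq2 libraries were read by column name. The authors trimmed reads with Trim Galore 0.6.6, mapped them to mm10 with HISAT2 2.1.0, used SeqMonk to count them over protein-coding genes, and deposited the values as log2 RPM for 21859 genes. Versions are from the submitters' processing notes. The counting strand is not stated, but no exon of the 10 genes overlaps a gene on the other strand in GENCODE vM21. The authors called genes with edgeR on counts. Here the deposited log2 values were tested, and reads recovered from them served an alternative.
Whole reads were recovered from the RPM steps, and 100% of values under 1000 reads were whole within 0.01 reads, with genes without reads at 0.9 reads. Log2 RPM was fitted with limma 3.58.1 in R 4.3.3 (eBayes with trend) on the 16932 genes with a mean RPM of over -1 on the log2 scale and no added pseudocount, with Benjamini-Hochberg adjustment over all genes tested. The scripts were tested on simulated data. Correlations used exact permutation over the 5040 pairings of 7 libraries (Python 3.11.15, scipy 1.17.1). The text names all 10 genes, the called genes of each list with *Pgf* and *Vegfd*, and the 5 genes most like *Kdr*. Members of marker lists were named after their values were seen. Alternatives covered scaling, pseudocount, filter, array weights, voom on recovered reads, batch, the replicate number and each library left out. Batches alone, a common floor and scores without *Erg* were chosen after the data were seen. Genes and lists were chosen with earlier results of these data known. 0 columns belonged to no sample.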

Additional observations from a re-analysis of the deposited data

Results flagged for a closer look

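Over 20 groups of values (10 genes in 2 conditions), 2 libraries lay far from the others of their group by Dixon's criterion, which by chance marks about 1 in 20 groups. *Flt4* in cryptorchid replicate 2 was at -3.48 log2 RPM with 1 read, and the nearest library was at 1.54. *Nrp2* in cryptorchid replicate 6 was at -0.19 log2 RPM with 4 reads, and the nearest library was at 1.93.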

How the results depend on the processing

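The log2 difference of *Kdr* stayed positive in each of the 25 settings run. It was 1.48 with array weights, 2.93 in batch 1 alone and 1.22 in batch 2 alone, and 1.60 to 2.62 with single libraries left out, the lowest without control replicate 3. Of the members tested, *Cdh5* alone was called in 23 settings, 2 members (*Cdh5* and *Vegfa*) in batch 1 alone and 0 in batch 2 alone, where *Cdh5* was at 1.48. *Vegfa* was called at 3.90 in batch 1 (unadjusted *P*=0.0264 in limma), and was at -0.90 with array weights and -2.40 in batch 2. Other signs that turned, none of them called, were *Flt1* at -0.013, *Flt4* at -0.60 and *Nrp1* at -0.24 in batch 1, *Flt4* at -0.28 with the replicate block and *Nrp1* at -0.031 without control replicate 2. The cause was not tested. *Nrp2*, *Vegfb*, *Vegfc* and *Pecam1* kept their sign.
Over all genes, the 1002 calls became 1585 with array weights, 1678 with the replicate block and 632 in batch 1 alone. The share of higher calls was 60.2% in the fit reported, 51.5% with median centring, 45.7% with quantile normalization, 47.7% with the batch term and 46.4% with the replicate block. The 2 genes with an adjusted *P*-value under 0.05 in limma became 4 with median centring or quantile normalization, 5 with log2(RPM + 1), 476 with array weights, 949 with the replicate block, 46 with the batch term, 0 in either batch alone (633 and 2934 had an unadjusted *P*-value under 0.05) and 0 to 9 with single libraries left out. 0 were found without control replicates 1, 4 or 5 and 9 without cryptorchid replicate 6.
Control and cryptorchid libraries share replicate numbers, and deviations of equal numbers correlated at 0.0488 to 0.411, with 4 of 5 pairs over 0.1. In each group 4 libraries correlated best with their own number. The replicate block left *Cdh5* as the called member and *Kdr* at 2.20.
The correlation of *Kdr* with the endothelial score in cryptorchid libraries (-0.55) was 0.77 with the log2 of the summed RPM, 0.11 after quantile normalization, 0.13 for deviations from group means and -0.075 for deviations from group and batch means over 12 libraries, and -0.72 to -0.29 with single libraries left out. Depth limits the ligands most, as *Vegfa*, *Vegfb* and *Vegfc* had at most 54 reads in any library.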
